A study of Mus musculus with 18 samples.

Results

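The 10 genes described here encode proteins that release arachidonic acid or help turn it into prostaglandins, thromboxane and leukotrienes, together with 1 prostaglandin receptor. They are Pla2g4a, Ptgs1, Ptgs2, Ptges, Tbxas1, Alox5, Alox5ap, Ltc4s, Lta4h and Ptger4, and they were chosen by gene symbol. Each library listed 23420 genes, of which 11876 had enough counts to be tested, and all 10 were among those tested. RNA was sequenced from dendritic cells grown from the bone marrow of C57BL/6 mice, and the study compared Bat3-deleted cells with wild-type (WT) cells and tolerising cytokines with none. All cultures received GM-CSF at 20 ng/ml, a growth factor that drives marrow cells towards dendritic cells, and were treated for 8 hours before live cells with high surface CD11c were sorted. The 18 libraries fell into 6 groups of 3. Cells with the genotype Bat3 fl/fl CD11c Cre (cKO) were given LPS (lipopolysaccharide of Gram-negative bacteria, which TLR4 recognises) or medium. WT cells were given LPS with IL10 and TGF-beta, IL10 and TGF-beta alone, LPS alone, or medium. IL10 and TGF-beta, both immunosuppressive, are called the cytokines from here on, and their doses and that of LPS were not given in the sources used here. Bat3 is an older name of Bag6, which encodes a chaperone for membrane and misfolded proteins, and the Cre recombinase that deletes it is driven by the CD11c promoter, so deletion is limited to cells that have switched that promoter on. The labels mention 5 biological replicates in one place and triplicates in another, and the animal behind each library is not named, so p-values measure only the spread between these samples.

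Cytosolic phospholipase A2 alpha, the product of Pla2g4a, releases arachidonic acid from membrane lipids. The cyclooxygenases encoded by Ptgs1 and Ptgs2 turn it into prostaglandin H2, from which Ptges makes prostaglandin E2 and Tbxas1 makes thromboxane A2. Alternatively, 5-lipoxygenase (Alox5), helped by its activating protein (Alox5ap), makes leukotriene A4, which Lta4h converts to leukotriene B4 and Ltc4s to leukotriene C4. In dendritic cells prostaglandin E2 is known as a mediator of the response to bacterial products that acts back on the cells through EP4, the receptor encoded by Ptger4, and leukotrienes are known for attracting granulocytes and for guiding dendritic cell migration.

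Promoter windows are shown for the pair of genes that LPS raised most, Ptgs2 and Ptges, and for Ptgs1 and Alox5, whose fall under LPS differed between genotypes. The fall of Ptger4 also differed between genotypes, and its window is not shown. The sequences are from RefSeq on GRCm38.p6, run 5′ to 3′ on the strand of the gene, and span 250 bases before to 50 bases after the start site. Of the 10 genes, 9 had a window. Capitals mark matches to any of 4 motifs searched on both strands: an NF-kB pattern (GGGNNNNNCC), a C/EBP pattern (TTNNGNAA), the core of the cAMP response element (TGACG) and an AP-1 pattern (TGANTCA). Of 32851 promoter windows of the same length, 50.8% held the NF-kB pattern, 40.7% the C/EBP pattern, 20.8% the cAMP response core and 7.81% the AP-1 pattern, so a match to either of the loose patterns is common.
Ptgs2, chr1:150099781-150100080, plus strand: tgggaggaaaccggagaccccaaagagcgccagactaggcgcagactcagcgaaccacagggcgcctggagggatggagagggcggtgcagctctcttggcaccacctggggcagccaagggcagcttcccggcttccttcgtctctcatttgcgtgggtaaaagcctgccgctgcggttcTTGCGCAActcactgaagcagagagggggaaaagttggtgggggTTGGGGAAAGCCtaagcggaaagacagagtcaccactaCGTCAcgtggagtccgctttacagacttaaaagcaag
Ptges, chr2:30903248-30903547, minus strand: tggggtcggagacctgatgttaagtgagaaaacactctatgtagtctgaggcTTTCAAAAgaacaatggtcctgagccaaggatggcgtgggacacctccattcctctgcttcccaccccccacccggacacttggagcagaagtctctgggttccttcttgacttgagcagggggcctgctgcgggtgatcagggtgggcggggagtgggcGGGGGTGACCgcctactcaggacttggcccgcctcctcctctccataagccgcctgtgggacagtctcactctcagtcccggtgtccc
Ptgs1, chr2:36230176-36230475, plus strand: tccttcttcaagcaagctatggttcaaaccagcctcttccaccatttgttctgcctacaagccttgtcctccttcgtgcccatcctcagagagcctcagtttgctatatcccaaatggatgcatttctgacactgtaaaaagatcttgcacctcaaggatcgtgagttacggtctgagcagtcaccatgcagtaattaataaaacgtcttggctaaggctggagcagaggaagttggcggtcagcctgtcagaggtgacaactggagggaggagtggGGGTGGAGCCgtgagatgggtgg
Alox5, chr6:116461129-116461428, minus strand: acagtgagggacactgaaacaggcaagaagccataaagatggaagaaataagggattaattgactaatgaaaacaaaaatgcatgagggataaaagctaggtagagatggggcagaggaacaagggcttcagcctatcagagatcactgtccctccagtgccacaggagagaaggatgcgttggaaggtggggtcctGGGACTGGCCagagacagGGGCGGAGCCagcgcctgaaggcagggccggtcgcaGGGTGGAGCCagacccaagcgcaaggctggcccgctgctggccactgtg

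Positions of matches are given for their first base, counted from 1 at the start site, with negative numbers before it. The Ptgs2 window held a C/EBP match at -69 that reads the same on both strands, and another at -25 that overlapped an NF-kB match at -23. A core of the cAMP response element lay at 14 on the reverse strand. The Ptges window held an NF-kB match at -38 and a C/EBP match at -198 on the reverse strand. Neither the Ptgs1 nor the Alox5 window held a C/EBP, cAMP response core or AP-1 match. Ptgs1 had 1 NF-kB match, at 28, and Alox5 had 3, at -53, -35 and 2. The Ptger4 window held NF-kB matches at -189 and, on the reverse strand, at -188 and -104, and no match to the other motifs. These matches describe letters only, since no binding was measured.

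Bag6 (chr17:35135178-35147322, GRCm38, GENCODE vM21) was checked first as the targeted gene, in CPM, its counts relative to the library size after TMM scaling. It was at 11.3, 10.45 and 6.31 CPM in the cKO LPS libraries and 4.81, 7.31 and 4.56 CPM in the cKO medium libraries, against 22.8 to 27.6 CPM in the 12 WT libraries. Every cKO library lay below every WT library, with a log2 fold change of -1.36 ± 0.17 (SE) under LPS (edgeR adjusted p = 9.3e-06) and -2.08 ± 0.17 in medium (adjusted p = 9.09e-08). Libraries held between 8056831 and 12068759 expected counts. The scaling factors of the cKO LPS libraries were the lowest (0.797 to 0.807, against up to 1.17 elsewhere). Ribosomal precursor RNA (Rn45s) made up 1.28% to 4.01% of counts in cKO medium and 6.38% to 8.02% in WT medium. Xist was at 1014 CPM in replicate 1 of cKO LPS and 526 CPM in replicate 1 of cKO medium, and at most 1.12 CPM in the other libraries. Calls of the 10 genes that changed without these first replicates are given with the counts over the 10 genes. The dendritic cell markers Cd74 and H2-Ab1 were at 1820 to 3808 and 888 to 2273 CPM in WT medium, while lymphocyte markers summed to at most 2.72 CPM in any library.

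**Figure D1:**
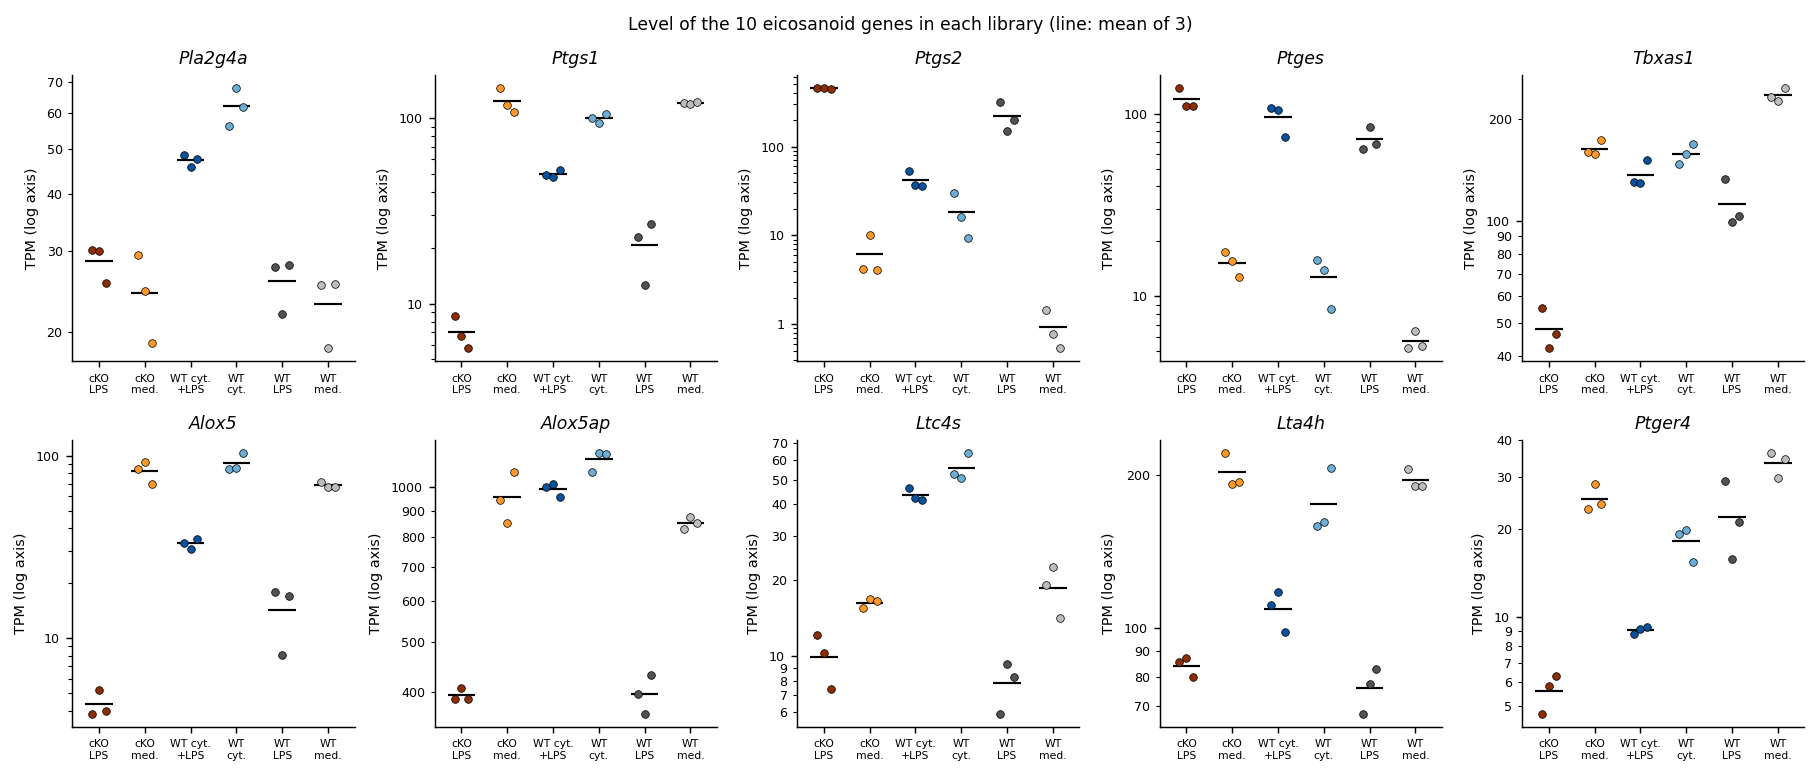
Level of each of the 10 genes in every library, in TPM (a scale that corrects for transcript length) on a log axis. Points are libraries, lines are means of 3, and med. and cyt. stand for medium and for IL10 with TGF-beta. Ptgs2 and Ptges were high in the cKO LPS and WT LPS libraries, where Ptgs1 and Alox5 were low. Ptges was also high with LPS and cytokines (mean 95.6 TPM), overlapping WT LPS (mean 72.5 TPM).

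Pla2g4a (chr1:149829618-149961290, minus strand), the phospholipase, was highest with the cytokines. It was at 69.2, 70.9 and 59.8 CPM in cKO LPS and 48.5, 38.9 and 30.55 CPM in cKO medium. In WT cells it was at 92.9, 82.9 and 88.9 CPM with LPS and cytokines and 94.15, 117 and 102 CPM with the cytokines alone, against 47.1, 42.6 and 50.4 CPM with LPS and 38.6, 28.6 and 38.0 CPM in medium. All libraries with cytokines lay above all those without. The cytokines raised Pla2g4a 2.98-fold over medium (log2 1.58 ± 0.14, adjusted p = 1.79e-08) and 1.89-fold when added to LPS (log2 0.92 ± 0.14, adjusted p = 2.38e-05). The rise with LPS was 1.70-fold in cKO cells (adjusted p = 9.43e-05) and 1.33-fold in WT cells (log2 0.41 ± 0.14, adjusted p = 0.0179). Under LPS it was 1.43-fold higher in cKO than in WT cells (log2 0.51 ± 0.14, adjusted p = 0.0086), and in medium the genotypes overlapped (log2 0.16 ± 0.14, adjusted p = 0.412). The LPS call in WT cells was lost without WT LPS replicate 3 (0.35, adjusted p = 0.076) or WT medium replicate 2 (0.28, adjusted p = 0.11). On the TPM scale both LPS calls and the genotype call under LPS were lost (log2 of TPM + 1: 0.16, 0.24 and 0.15, with adjusted p of 0.36, 0.15 and 0.43 for LPS in WT cells, LPS in cKO cells and cKO against WT).

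The cyclooxygenases moved in opposite directions with LPS. Ptgs2 (chr1:150100031-150108227, plus strand), the inducible cyclooxygenase, was at 1553, 1573 and 1529 CPM in cKO LPS, against 789, 424 and 526.5 CPM in WT LPS. In medium it was at 10.2, 23.5 and 9.87 CPM in cKO cells and 3.31, 1.80 and 1.18 CPM in WT cells, the last resting on 39, 21 and 14 counts. The cKO libraries lay above the WT libraries both with and without LPS. LPS raised Ptgs2 107-fold in cKO cells (log2 6.74 ± 0.53, adjusted p = 1.14e-07) and 275-fold in WT cells (log2 8.10 ± 0.60, adjusted p = 9.57e-08). It was 2.68-fold higher in cKO than in WT cells under LPS (log2 1.42 ± 0.41, adjusted p = 0.0165) and 6.87-fold higher in medium (log2 2.78 ± 0.59, adjusted p = 0.00376). The difference between these genotype effects was not called (log2 -1.36 ± 0.73, adjusted p = 0.219), although the fit without a count filter called it (-1.33, adjusted p = 5.3e-08). The genotype call under LPS was lost without WT LPS replicate 2 (1.24, adjusted p = 0.059) or replicate 3 (1.36, adjusted p = 0.058).

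The cytokines raised Ptgs2 in resting cells and lowered it in LPS-treated cells. WT cells had 148.5, 98.8 and 98.4 CPM of Ptgs2 with LPS and cytokines and 74.4, 41.1 and 23.1 CPM with the cytokines alone, so each group lay between WT LPS and WT medium with no overlap. Ptgs2 was 21.9-fold higher with the cytokines than in medium (log2 4.45 ± 0.57, adjusted p = 4.16e-05) and fell to 0.199 of the LPS level when they were added to LPS (log2 -2.33 ± 0.42, adjusted p = 6.68e-04). The LPS response in the presence of the cytokines was 2.50-fold (log2 1.32 ± 0.42, adjusted p = 0.0202), and the difference from the response without them was log2 -6.78 ± 0.71 (adjusted p = 1.79e-05). The 2.50-fold response lost its call without WT cytokine replicate 2 (1.24, adjusted p = 0.067) or replicate 3 (1.00, adjusted p = 0.074), or without replicate 1 of LPS with cytokines (1.10, adjusted p = 0.079). It was also lost when only these groups were fitted (1.33, adjusted p = 0.092).

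Ptgs1 (chr2:36230426-36252272, plus strand), the constitutive cyclooxygenase, fell with LPS in both genotypes and fell furthest in cKO cells. It was at 19.7, 16.0 and 13.5 CPM in cKO LPS, against 39.2, 24.7 and 48.7 CPM in WT LPS. In medium it was at 243, 187.5 and 176 CPM in cKO cells and 186, 187 and 185 CPM in WT cells, which overlapped. Ptgs1 fell to 0.0814 of the medium level with LPS in cKO cells (log2 -3.62 ± 0.19, adjusted p = 1.71e-11) and to 0.202 in WT cells (log2 -2.31 ± 0.18, adjusted p = 3.19e-09). The genotype effect was log2 -1.19 ± 0.19 under LPS (adjusted p = 1.46e-04) and 0.12 ± 0.16 in medium (adjusted p = 0.609), and the difference between these was called (-1.31 ± 0.25, adjusted p = 0.00229). With the cytokines, WT cells had 94.7, 87.5 and 99.0 CPM under LPS and 170, 164 and 177 CPM without it. Adding the cytokines to LPS raised Ptgs1 2.49-fold over LPS alone (log2 1.32 ± 0.17, adjusted p = 7.44e-06), while the cytokines alone left it close to the medium level (log2 -0.12 ± 0.16, adjusted p = 0.602). With the cytokines present LPS lowered Ptgs1 by 0.86 on the log2 scale (SE 0.17, adjusted p = 3.5e-04), and the difference from the response without them was 1.44 ± 0.24 (adjusted p = 2.31e-04).

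On the per-length TPM scale the balance of the cyclooxygenases turned over with treatment. The ratio of Ptgs2 to Ptgs1 TPM was 54.0 to 77.3 in cKO LPS and 7.39 to 13.8 in WT LPS. It was 0.0286 to 0.0855 in cKO medium and 0.00438 to 0.0122 in WT medium. The ratio was 0.679 to 1.07 with LPS and cytokines and 0.08925 to 0.298 with the cytokines alone. No groups overlapped in this ratio, although the highest cKO medium library lay just below the lowest cytokine library.

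**Figure D2:**
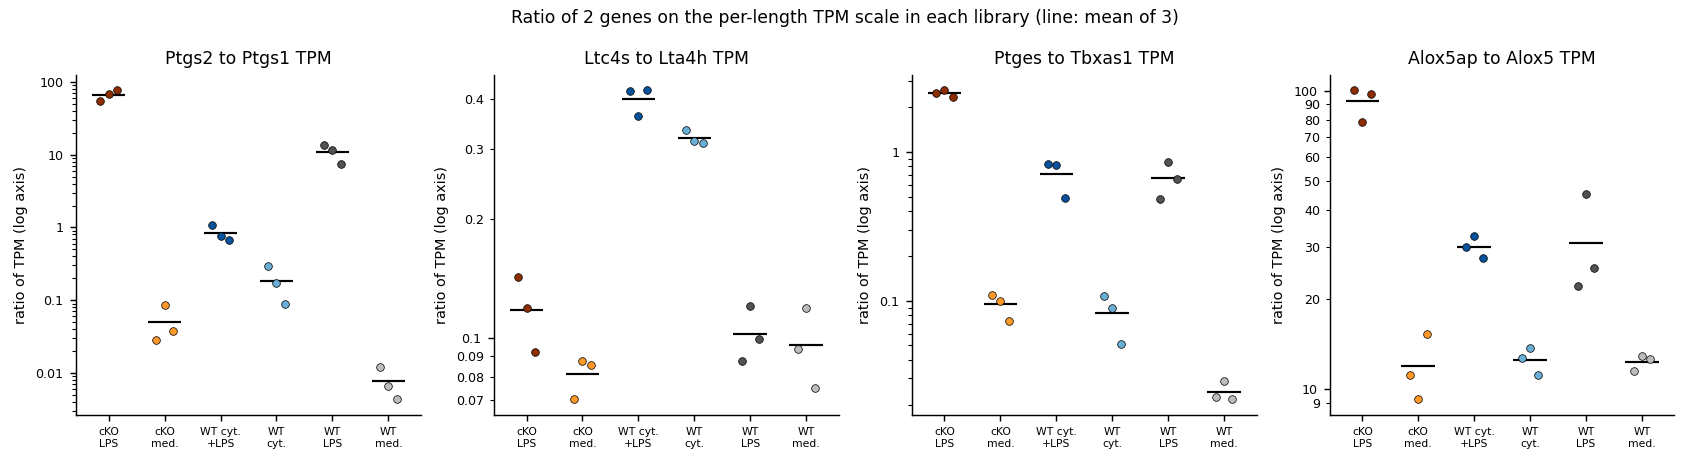
Ratio of TPM of 2 genes in each library, on log axes, with lines for means of 3. The ratio of Ptgs2 to Ptgs1 ran from 0.00438 in a WT medium library to 77.3 in a cKO LPS library, and the ratio of Ltc4s to Lta4h was at least 0.31 in the 6 libraries with cytokines and at most 0.142 in the others.

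The terminal synthases also diverged. Ptges (chr2:30889471-30929863, minus strand), the inducible synthase of prostaglandin E2, was at 411, 338 and 330 CPM in cKO LPS, against 141, 214 and 159 CPM in WT LPS. In medium it was at 37.2, 32.0 and 26.5 CPM in cKO cells and 10.3, 12.95 and 10.35 CPM in WT cells. The genotypes did not overlap in either condition. LPS raised Ptges 11.3-fold in cKO cells (log2 3.49 ± 0.23, adjusted p = 1.53e-09) and 15.3-fold in WT cells (log2 3.94 ± 0.25, adjusted p = 1.06e-09). Ptges was 2.10-fold higher in cKO than in WT cells under LPS (log2 1.07 ± 0.21, adjusted p = 0.00103) and 2.85-fold higher in medium (log2 1.51 ± 0.24, adjusted p = 2.54e-04). With the cytokines WT cells had 266, 245 and 178 CPM under LPS and 34.4, 31.2 and 18.25 CPM without it. The rise with the cytokines alone was 2.49-fold over medium (log2 1.32 ± 0.24, adjusted p = 3.99e-04), and LPS added 8.25-fold to that (log2 3.04 ± 0.23, adjusted p = 3.65e-08). Unlike Ptgs2, Ptges was not called when the cytokines were added to LPS (log2 0.42 ± 0.21, adjusted p = 0.118), but the call was gained when WT LPS replicate 2 was left out (0.62, adjusted p = 0.043), when replicate 3 of LPS with cytokines was left out (0.58, adjusted p = 0.046) or without a count filter (0.44, adjusted p = 0.0015). The difference between the LPS responses of Ptges with and without the cytokines was -0.89 ± 0.32, just short of a call (adjusted p = 0.0574). It was called with DESeq2 (-0.90, adjusted p = 0.017), without a count filter (-0.88, adjusted p = 2.8e-05) and in 3 of the 12 fits that left out a library.

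Tbxas1 (chr6:38875404-39084585, plus strand), which encodes thromboxane A synthase, was at 87.0, 68.4 and 74.45 CPM in cKO LPS, against 154, 133 and 128 CPM in WT LPS. In medium it was at 179, 170 and 191 CPM in cKO cells and 242, 238 and 251.5 CPM in WT cells. It was lower in cKO cells without overlap in both conditions, by log2 -0.85 ± 0.10 under LPS (adjusted p = 5.41e-06) and -0.44 ± 0.10 in medium (adjusted p = 0.00251). LPS lowered it to 0.426 of the medium level in cKO cells (adjusted p = 1.71e-09) and to 0.567 in WT cells (adjusted p = 5.91e-07). With the cytokines it was at 169, 160 and 192 CPM under LPS and 169, 186 and 190 CPM without it, so that LPS made no called difference there (log2 -0.06 ± 0.10, adjusted p = 0.638). The difference between the LPS responses with and without the cytokines was 0.76 ± 0.14 (adjusted p = 5.29e-04). Against medium the cytokines lowered Tbxas1 (log2 -0.43 ± 0.10, adjusted p = 0.00198), and added to LPS they raised it (log2 0.33 ± 0.10, adjusted p = 0.0118), a call lost without WT LPS replicate 3 (0.28, adjusted p = 0.066) or replicate 3 of LPS with cytokines (0.25, adjusted p = 0.078). The ratio of Ptges to Tbxas1 TPM was 2.35 to 2.62 in cKO LPS and 0.4855 to 0.856 in WT LPS, and it was at most 0.11 in cKO medium and 0.02885 in WT medium.

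Alox5 (chr6:116410077-116461178, minus strand), the enzyme that starts leukotriene synthesis, had an order of groups close to that of Ptgs1. It was at 8.77, 12.2 and 9.23 CPM in cKO LPS, against 30.3, 15.6 and 30.3 CPM in WT LPS. In medium it was at 138, 145 and 112 CPM in cKO cells and 109, 104 and 100.0 CPM in WT cells. In CPM the cKO libraries lay below the WT libraries with LPS and above them in medium. On the TPM scale the medium groups overlapped (69.75 to 92.0 in cKO cells and 67.5 to 71.7 in WT cells). Alox5 fell to 0.0764 of the medium level with LPS in cKO cells (log2 -3.71 ± 0.20, adjusted p = 2.16e-11) and to 0.245 in WT cells (log2 -2.03 ± 0.18, adjusted p = 1.91e-08). The genotype effect was -1.34 ± 0.21 under LPS (adjusted p = 1.02e-04), and 0.34 ± 0.17 in medium, where it was not called (adjusted p = 0.136). The difference between the LPS responses of the genotypes was called at -1.68 ± 0.27 (adjusted p = 6.09e-04). With the cytokines Alox5 was at 63.3, 55.7 and 64.4 CPM under LPS and 140.5, 146 and 170 CPM without it. It was 2.40-fold higher with LPS and cytokines than with LPS alone (log2 1.26 ± 0.18, adjusted p = 1.63e-05) and 1.46-fold higher with the cytokines than in medium (log2 0.55 ± 0.17, adjusted p = 0.015). The rise over medium lost its call without WT cytokine replicate 3 (0.46, adjusted p = 0.07) and on the TPM scale (0.39, adjusted p = 0.14).

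Alox5ap (chr5:149264767-149288153, plus strand), the activating protein of 5-lipoxygenase, had the highest mean TPM of the 10 genes in every group except cKO LPS, where Ptgs2 was above it. Its mean was 394 ± 10.7 TPM in cKO LPS, 955 ± 109 in cKO medium, 989 ± 28.55 with LPS and cytokines, 1131 ± 52.3 with the cytokines, 397 ± 33.9 in WT LPS and 850.4 ± 23.25 in WT medium (SD, n = 3 each). LPS lowered it in both genotypes, to 0.596 of the medium level in cKO cells (adjusted p = 4.58e-07) and 0.555 in WT cells (adjusted p = 1.07e-07). With the cytokines present LPS made no called difference (log2 -0.05 ± 0.09, adjusted p = 0.684). Added to LPS, the cytokines raised Alox5ap 2.55-fold (log2 1.35 ± 0.09, adjusted p = 5.61e-10), and alone 1.46-fold over medium (log2 0.55 ± 0.09, adjusted p = 6.9e-05). Its difference between cKO and WT cells depended on the scale. In CPM it was 244, 265 and 249 in cKO LPS against 185, 195.5 and 213 in WT LPS (log2 0.35 ± 0.09, adjusted p = 0.00569), while on the TPM scale the libraries overlapped (log2 -0.01, adjusted p = 0.95). In medium the call of log2 0.25 ± 0.09 (adjusted p = 0.0457) was lost without any single library except cKO medium replicate 2, with values from 0.16 to 0.28 and adjusted p from 0.053 to 0.23.

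The enzymes that use leukotriene A4 differed in their response to the cytokines. Ltc4s (chr11:50236461-50238616, minus strand), the synthase of leukotriene C4, was at 15.7, 13.7 and 13.7 CPM with LPS and cytokines and 15.7, 15.6 and 18.7 CPM with the cytokines alone, against 1.79, 3.27 and 2.65 CPM with LPS and 5.265, 6.29 and 3.785 CPM in medium. All 6 libraries with cytokines lay above all others. Ltc4s rose 5.58-fold when the cytokines were added to LPS (log2 2.48 ± 0.22, adjusted p = 1.75e-08) and 3.26-fold over medium (log2 1.71 ± 0.19, adjusted p = 4.99e-07). LPS lowered it in WT cells (log2 -0.99 ± 0.24, adjusted p = 0.00117). In cKO cells Ltc4s was at 4.95, 4.365 and 3.08 CPM with LPS, from 35, 28 and 20 counts, and at 4.54, 4.715 and 4.75 CPM in medium (log2 -0.17 ± 0.23, adjusted p = 0.54). On the TPM scale Ltc4s was called lower with LPS in cKO cells (-0.68, adjusted p = 0.0024), with 7.38 to 12.2 TPM in cKO LPS and 15.5 to 16.8 TPM in cKO medium. The genotypes overlapped under LPS, and the call there (0.69 ± 0.26, adjusted p = 0.0428) was lost without cKO LPS replicate 1 (0.56, adjusted p = 0.16) or 2 (0.67, adjusted p = 0.094) and without WT LPS replicate 1 (0.49, adjusted p = 0.2) or 3 (0.72, adjusted p = 0.079). That genotype call was also lost on the TPM scale (0.31, adjusted p = 0.16), with only those groups fitted (0.71, adjusted p = 0.088) and without a count filter (0.69, adjusted p = 0.063). Lta4h (chr10:93453411-93484875, plus strand), which makes leukotriene B4, was at 140, 147.5 and 134 CPM in cKO LPS and 260, 217 and 224 CPM in cKO medium, against 82.6, 108 and 107 CPM in WT LPS and 224, 211 and 203 CPM in WT medium. It fell with LPS to 0.601 of the medium level in cKO cells (adjusted p = 9.57e-06) and to 0.466 in WT cells (adjusted p = 6.15e-08). With the cytokines it was at 151, 152 and 131 CPM under LPS and 190, 199.5 and 244 CPM without it, overlapping medium in the absence of LPS (log2 -0.01 ± 0.11, adjusted p = 0.956) and 1.46-fold above LPS alone in its presence (adjusted p = 6.44e-04). Under LPS it was 1.42-fold higher in cKO than in WT cells (log2 0.50 ± 0.12, adjusted p = 0.00208), a call lost on the TPM scale (0.15, adjusted p = 0.25). The ratio of Ltc4s to Lta4h TPM was 0.31 to 0.422 in the 6 libraries with cytokines and 0.0702 to 0.142 in the other 12.

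Ptger4 (chr15:5206661-5244187, minus strand), the receptor EP4, fell furthest where cKO cells met LPS. It was at 10.5, 13.6 and 13.8 CPM in cKO LPS and 37.0, 43.0 and 38.2 CPM in cKO medium, against 47.4, 29.7 and 36.4 CPM in WT LPS and 53.3, 44.4 and 49.6 CPM in WT medium. The cKO LPS libraries lay below all others in these groups. The genotype effect was -1.59 ± 0.16 under LPS (adjusted p = 8.91e-07) and -0.32 ± 0.14 in medium (adjusted p = 0.0974), and the difference between these was -1.27 ± 0.22 (adjusted p = 7.81e-04). LPS lowered Ptger4 by 1.64 on the log2 scale in cKO cells (SE 0.16, adjusted p = 2.02e-08) and by 0.37 in WT cells (SE 0.14, adjusted p = 0.0307). The WT call was lost without WT LPS replicate 2 (-0.23, adjusted p = 0.19) or 3 (-0.35, adjusted p = 0.088), without WT medium replicate 1 (-0.31, adjusted p = 0.11) or 3 (-0.37, adjusted p = 0.06), and with only these groups fitted (-0.39, adjusted p = 0.066). With the cytokines it was at 15.8, 16.1 and 16.5 CPM under LPS and 31.0, 32.3 and 24.1 CPM without it. The cytokines lowered Ptger4 both when added to LPS (log2 -1.23 ± 0.15, adjusted p = 1.69e-06) and against medium (-0.75 ± 0.14, adjusted p = 3.08e-04). Exons of Ptger4 overlap those of Ttc33 on the other strand, and the sources used here do not state whether counting used the strand, so reads of this pair cannot be told apart. Exons of Ptgs1, Tbxas1, Alox5ap and Ltc4s overlap only unnamed gene models on the other strand.

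**Figure D3:**
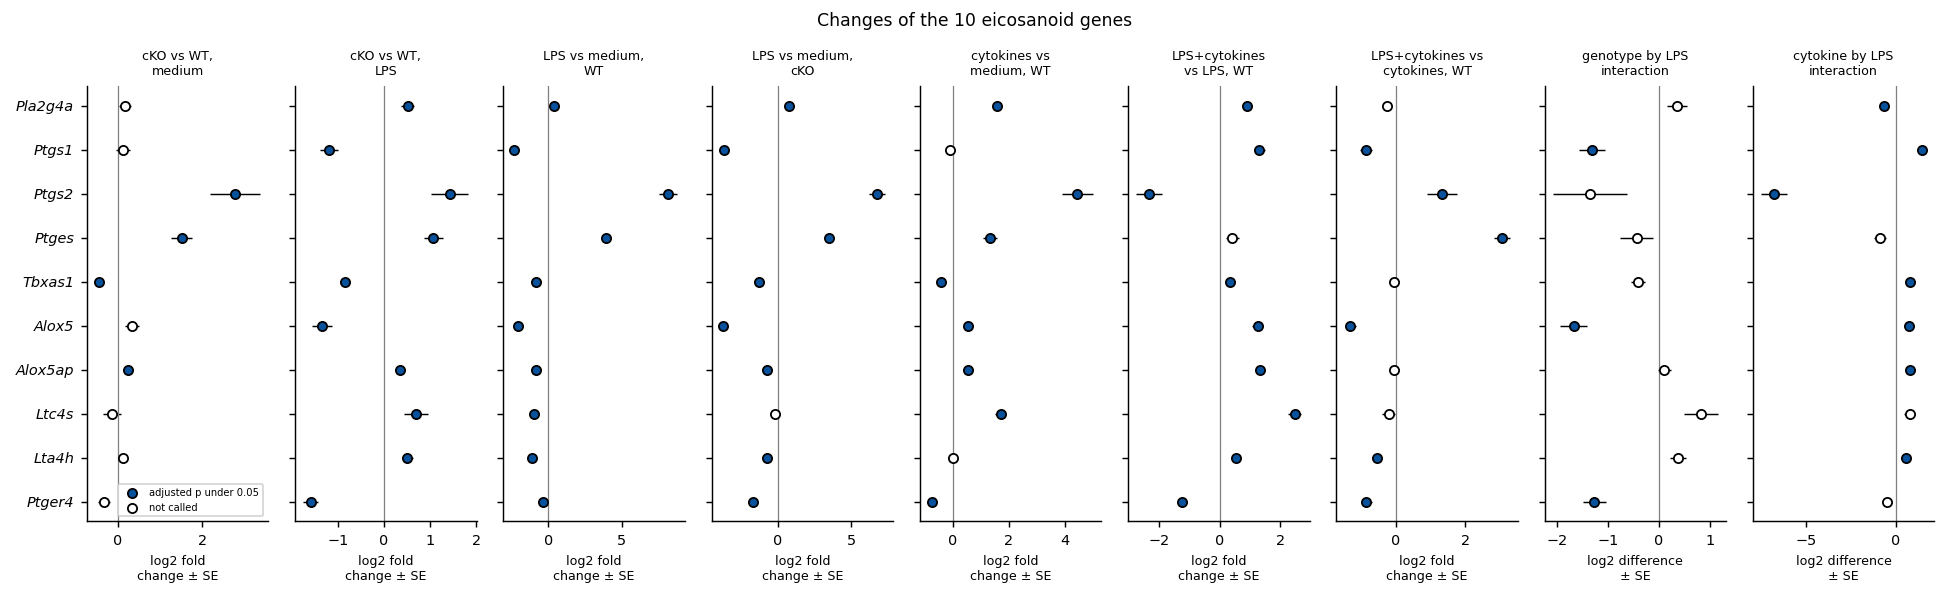
Log2 fold change of each gene in 7 comparisons and 2 interactions, as points with bars for 1 SE. Filled points had an edgeR adjusted p under 0.05. Ptgs2 and Ptges lie right of 0 in both cKO comparisons and both LPS comparisons against medium, and Ptgs1 and Alox5 lie left of 0 in LPS against medium.

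Counts over the 10 genes are set beside the share of all tested genes called in the same comparison. Under LPS, cKO against WT, 6 were higher (Pla2g4a, Ptgs2, Ptges, Alox5ap, Ltc4s and Lta4h) and 4 lower (Ptgs1, Tbxas1, Alox5 and Ptger4), where 35.3% of all tested genes were called, 16% higher and 19.3% lower. On the TPM scale 6 of the 10 were called, 2 higher and 4 lower, and the median of all genes there was -0.31. In medium, cKO against WT, 3 were higher (Ptgs2, Ptges and Alox5ap) and 1 lower (Tbxas1), where 30.2% of all genes were called, 15.8% higher and 14.4% lower. The median log2 fold change of the 10 was 0.426 under LPS and 0.15 in medium, beside -0.05 and -0.001 for all genes. For the difference of the LPS response between cKO and WT, 3 were called (Ptgs1, Alox5 and Ptger4), each lower, where 17.4% of genes were called, 7.33% higher and 10.1% lower. Without WT LPS replicate 2 this count was 5, with Tbxas1 (-0.44, adjusted p = 0.045) and Ltc4s (1.02, adjusted p = 0.048) added. Without the first replicates of both cKO groups, Ltc4s under LPS (0.54, adjusted p = 0.19) and Alox5ap in medium (0.24, adjusted p = 0.11) lost their calls, Tbxas1 gained one for the difference of LPS responses (-0.51, adjusted p = 0.038), and the uncalled values of Pla2g4a and Ptgs1 in medium were -0.02 and -0.03. In cKO medium, 14 of 17 granulocyte markers, 4 of 9 mast cell and basophil markers and 4 of 4 megakaryocyte and platelet markers tested were higher than in WT medium. Granulocyte markers summed to 1745 to 4460 CPM in cKO medium and 971 to 1572 CPM in WT medium, with none at 0 in either group, while under LPS they summed to 2181 to 3845 CPM in cKO cells and 2304 to 4575 CPM in WT cells. Megakaryocyte and platelet markers summed to 364 to 609 CPM in cKO medium and 218 to 286 CPM in WT medium. Under LPS they summed to 562 to 806 CPM in cKO cells and 394 to 417 CPM in WT cells, with 1 of 4 called higher. Macrophage markers summed to 3981 to 4196 CPM in cKO LPS and 3155 to 3365 CPM in WT LPS, with 4 of 10 higher and 1 lower. Cd14, among the most abundant of these markers, was at 1958 ± 53.7 CPM in cKO LPS and 755 ± 32.1 CPM in WT LPS. Csf1r, the most abundant over all groups, was at 772 ± 57.8 and 720 ± 48.4 CPM (SD, n = 3 each). In medium macrophage markers summed to 2161 to 2374 CPM in cKO cells and 1982 to 2192 CPM in WT cells, with 2 of 10 higher and 5 lower. There Cd14 was at 748 CPM in cKO cells and 308 CPM in WT cells, and Csf1r at 922.5 and 958 CPM. Mast cell and basophil markers summed to 85.6 to 107 CPM in cKO LPS and 54.1 to 59.4 CPM in WT LPS, with Fcer1a, Tpsab1, Cma1 and Mcpt4 at 0 in both. The 1 of 9 called higher was Hdc, the most abundant, at 81.4 ± 8.57 CPM in cKO LPS and 45.2 ± 6.41 CPM in WT LPS, while the next, Prss34, was at 2.75 ± 1.67 CPM in cKO LPS and 3.75 ± 2.46 CPM in WT LPS (SD, n = 3 each). The part of these markers in the genotype differences was not tested, and in sorted bulk cells a change in the mix of cells and a change in RNA per cell cannot be told apart.

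With LPS against medium, 3 of the 10 genes were higher (Ptgs2, Ptges and Pla2g4a) and 6 lower in cKO cells, with Ltc4s not called, where 64.1% of all genes were called, 29.3% higher and 34.8% lower. In WT cells the same 3 were higher and the remaining 7 lower, where 58.7% were called, 29.8% higher and 28.9% lower. The median over the 10 was -0.74 in cKO cells and -0.835 in WT cells, beside -0.09 and 0.01 for all genes. Dendritic cell markers summed to 8141 to 8581 CPM in cKO LPS and 5446 to 8310 CPM in cKO medium, and to 7322 to 8018 CPM in WT LPS and 4133 to 9237 CPM in WT medium. Granulocyte markers were higher in WT LPS than in WT medium in 4 of 17, and in cKO cells 2 were higher with LPS and 11 lower. Of 10 macrophage markers tested, 5 were higher and 5 lower with LPS in each genotype. They summed to 3981 to 4196 CPM in cKO LPS and 2161 to 2374 CPM in cKO medium, and to 3155 to 3365 CPM in WT LPS and 1982 to 2192 CPM in WT medium. Of these markers Cd14 was at 1958 CPM in cKO LPS and 748 CPM in cKO medium, and at 755 and 308 CPM in WT cells. Csf1r was at 772 CPM in cKO LPS and 922.5 CPM in cKO medium, and at 720 and 958 CPM in WT cells. Mast cell and basophil markers summed to 85.6 to 107 CPM in cKO LPS and 16.9 to 39.0 CPM in cKO medium. Of 9 tested, 1 was higher and 2 lower with LPS in cKO cells. Hdc was at 81.4 CPM in cKO LPS and 6.30 CPM in cKO medium, while Prss34 was at 2.75 and 8.64 CPM. In WT cells the list summed to 54.1 to 59.4 CPM with LPS and 4.12 to 17.4 CPM in medium. The 1 of 9 called there was Hdc, at 45.2 CPM in WT LPS and 2.84 CPM in WT medium. The part of these markers in the LPS responses was not tested.

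The cytokines changed most of the 10 genes, in cultures whose marker genes also differed. When the cytokines were added to LPS, 7 were higher (Pla2g4a, Ptgs1, Tbxas1, Alox5, Alox5ap, Ltc4s and Lta4h) and 2 lower (Ptgs2 and Ptger4), where 40.3% of all genes were called, 19.1% higher and 21.1% lower. With the cytokines alone 6 were higher (Pla2g4a, Ptgs2, Ptges, Alox5, Alox5ap and Ltc4s) and 2 lower (Tbxas1 and Ptger4), where 35.2% were called, 18.3% higher and 16.9% lower. When LPS was added to the cytokines, 2 were higher (Ptgs2 and Ptges) and 4 lower (Ptgs1, Alox5, Lta4h and Ptger4), where 46.9% were called, 23.9% higher and 23.1% lower. The medians over the 10 were 0.731, 0.547 and -0.231 in these comparisons, beside -0.008, -0.002 and -0.002 for all genes. For the difference between the LPS responses with and without the cytokines, 5 were higher (Ptgs1, Tbxas1, Alox5, Alox5ap and Lta4h) and 2 lower (Ptgs2 and Pla2g4a), where 20.9% were called, 8.88% higher and 12.1% lower. These comparisons share control libraries, so their counts are not independent. The values not yet given were 0.80 ± 0.13 for Alox5ap (adjusted p = 1.1e-04), 0.55 ± 0.16 for Lta4h (adjusted p = 0.0168), 0.72 ± 0.24 for Alox5 (adjusted p = 0.0428) and -0.66 ± 0.20 for Pla2g4a (adjusted p = 0.0213). Alox5 lost its call in 8 of the 12 fits that left out a library, with adjusted p from 0.058 to 0.096, and with only these groups fitted (0.74, adjusted p = 0.051). Pla2g4a lost its call without WT LPS replicate 3 (-0.60, adjusted p = 0.06) or replicate 2 of LPS with cytokines (-0.61, adjusted p = 0.056). The same held without WT cytokine replicate 2 (-0.55, adjusted p = 0.078) or WT medium replicate 2 (-0.53, adjusted p = 0.065). On the TPM scale the Pla2g4a call was also lost (log2 of TPM + 1: -0.54, adjusted p = 0.077; log2 of TPM + 0.1: -0.55, adjusted p = 0.086). Lta4h lost its call without WT cytokine replicate 1 (0.49, adjusted p = 0.054).

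Dendritic cell markers were far lower with the cytokines, in 11 of 11 tested when they were added to LPS and in 9 of 11 against medium. Their summed level was 1340 to 1801 CPM with LPS and cytokines and 1569 to 2160 CPM with the cytokines alone, against 7322 to 8018 CPM with LPS and 4133 to 9237 CPM in medium. Granulocyte markers were higher in 10 of 17 and lower in 2 when the cytokines were added to LPS, and higher in 15 of 17 against medium. They summed to 6482 to 7615 CPM with LPS and cytokines and 6835 to 9766 CPM with the cytokines alone, against 2304 to 4575 CPM with LPS and 971 to 1572 CPM in medium. The most abundant, S100a8, was at 1494 CPM with LPS and cytokines and 2801 CPM with the cytokines alone, against 450 and 312 CPM without cytokines. The next, Lcn2, was at 2833 CPM with LPS and cytokines and 550 CPM with the cytokines alone, against 1392 CPM with LPS and 73.2 CPM in medium. Mast cell and basophil markers, whose cells are known for strong leukotriene C4 synthesis, were higher in 4 of 9 and lower in 1 with LPS. Against medium, 8 of 9 were higher and 1 lower. They summed to 25.1 to 49.5 CPM with LPS and cytokines and 40.9 to 65.7 CPM with the cytokines alone, against 54.1 to 59.4 CPM with LPS and 4.12 to 17.4 CPM in medium. In WT LPS the defining mast cell genes Fcer1a, Tpsb2, Tpsab1, Cma1, Mcpt4 and Mrgprb2 were at 0, and Mrgprb2 was at 0 with the cytokines. Only Mcpt4 and Mrgprb2 were at 0 in WT medium. The most abundant of that list, Hdc, was at 10.6 ± 4.445 CPM with LPS and cytokines and 14.2 ± 3.22 CPM with the cytokines alone, against 45.2 ± 6.41 CPM with LPS and 2.84 ± 1.52 CPM in medium (SD, n = 3 each). Eosinophil markers were higher in 3 of 6 with LPS and in 5 of 6 against medium, led by Prg2 at 206 ± 101 and 398 ± 88.8 CPM with cytokines, against 69.1 ± 16.2 CPM with LPS and 73.3 ± 39.8 CPM in medium. Macrophage markers were higher in 7 of 10 and lower in 1, both when the cytokines were added to LPS and against medium. They summed to 3916 to 4390 CPM with LPS and cytokines and 2891 to 3495 CPM with the cytokines alone, against 3155 to 3365 CPM with LPS and 1982 to 2192 CPM in medium. Megakaryocyte and platelet markers were higher in 4 of 4 against medium, at 319 to 638 CPM with the cytokines and 218 to 286 CPM in medium. The part of these markers in the cytokine differences of the 10 genes was not tested.

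**Figure D4:**
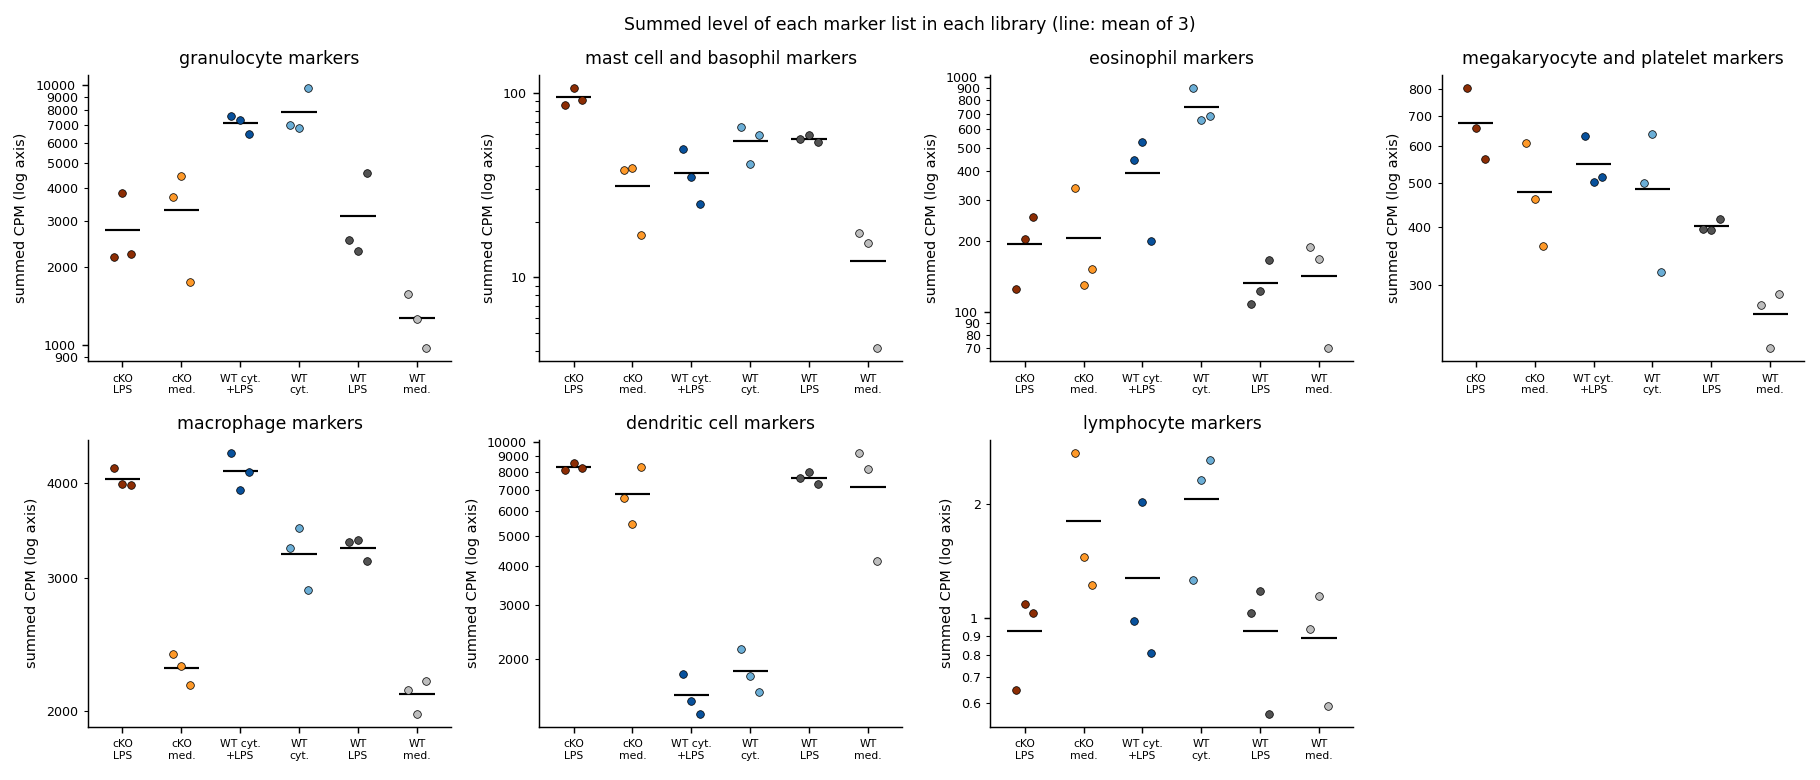
Summed CPM of 7 marker lists in each library, on log axes, with lines for means of 3. Dendritic cell markers summed to at most 2160 CPM in the 6 libraries with cytokines, and granulocyte markers to at least 6482 CPM there.

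The order of levels over the 6 groups, in mean TPM, differed between the genes. Ptgs2 ran from cKO LPS (452) through WT LPS (220.2), LPS with cytokines (41.9), cytokines (18.6) and cKO medium (6.13) to WT medium (0.933), and only the cytokine and cKO medium libraries overlapped. Ptges had the order cKO LPS (120), LPS with cytokines (95.6), WT LPS (72.5), cKO medium (15.3), cytokines (12.8) and WT medium (5.69), with overlap between LPS with cytokines and WT LPS and between cKO medium and cytokines. For Ptgs1 the order was cKO medium (124), WT medium (121), cytokines (100.5), LPS with cytokines (50.0), WT LPS (20.8) and cKO LPS (6.99), and only the medium groups overlapped. Alox5 was highest with the cytokines (91.0), followed by cKO medium (82.0), WT medium (68.9), LPS with cytokines (33.1), WT LPS (14.3) and cKO LPS (4.34), with overlap between the cytokines and cKO medium and between cKO medium and WT medium. In both of these the cKO LPS libraries lay lowest. Across the 18 libraries, which fall into 6 groups, the log2 CPM of Ptgs1 and Alox5 had a Pearson r of 0.983, that of Ptgs2 and Ptges 0.915 and that of Ptgs1 and Ptgs2 -0.889, given as descriptions.

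Among 9022 other genes whose log2 CPM averaged 2 or more, those with the highest Pearson r to Ptgs2 over the 18 libraries were Nos2 (0.984), which encodes inducible nitric oxide synthase, Ccrl2 (0.978) and Ifitm3 (0.978). Ptges was closest to Nbr1 (0.987), Tmem184b (0.984) and Mynn (0.981). For Ptgs1 these were Aacs (0.979), Elmo2 (0.979) and Cdkn2aipnl (0.978), and for Alox5 Rassf5 (0.984), Vps53 (0.98) and Rars2 (0.979). Tbxas1 was closest to Slc45a4 (0.978), Nbeal2 (0.967) and Mrps18b (0.967). Pla2g4a was closest to Derl1 (0.951), Hif1a (0.938) and Dnajb9 (0.933), Alox5ap to Cela1 (0.953), St3gal4 (0.951) and Rab11b (0.949), and Ltc4s to Itgb5 (0.965), Rnase4 (0.963) and Pdlim7 (0.95). Lta4h was closest to Fdps (0.949), Sqle (0.945) and Ramp1 (0.937), and Ptger4 to Myo1c (0.961), Dbnl (0.958) and Lrrc33 (0.952). All these r values rest on 6 clusters of libraries.

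A wider list of 65 other genes of eicosanoid synthesis, export, breakdown and reception had 64 in the files, of which 35 were tested. The share of all genes called in each comparison, given above with the 10 genes, is repeated beside each count. Under LPS, cKO against WT, 7 were higher and 8 lower (35.3% of all genes called). Cysltr2, a receptor of cysteinyl leukotrienes, was at 8.77, 10.45 and 8.15 CPM in cKO LPS against 1.79, 1.98 and 3.09 CPM in WT LPS, without overlap (log2 1.99 ± 0.28, adjusted p = 2.5e-05). Mgst2, which can make leukotriene C4, was higher by 0.52 ± 0.10 and Fam213b, a prostaglandin F synthase, by 0.60 ± 0.17, and neither was called on the TPM scale (0.16 and 0.22, adjusted p = 0.12 and 0.14). The prostaglandin reductase Ptgr2 was lower (-0.81 ± 0.13), as was Abcc4, which exports prostaglandins (-1.03 ± 0.17). In medium 8 were higher and 4 lower in cKO than in WT cells (30.2%). Mgst2 (0.75 ± 0.10), the secreted phospholipase Pla2g12a (1.51 ± 0.28) and Ptges2, another synthase of prostaglandin E2 (1.56 ± 0.31), were higher, while Ptgr2 (-0.58 ± 0.12), Ptges3, a synthase and chaperone partner (-0.88 ± 0.18), and Abcc4 (-0.62 ± 0.15) were lower. For the difference of the LPS responses between genotypes 7 were called, each lower (17.4%), with Ptger2, the receptor EP2 (-1.96 ± 0.33), Ltb4r1, a receptor of leukotriene B4 (-0.96 ± 0.17), and Ggt5, which cleaves leukotriene C4 (-1.46 ± 0.36), first by p. Adjusted p for the genes named here without one ranged from 1.24e-05 to 0.00979. Ptger2 was at 3.96, 2.81 and 2.00 CPM in cKO LPS and 7.44, 11.45 and 9.965 CPM in cKO medium, against 8.95, 6.88 and 9.05 CPM in WT LPS and 6.62, 5.32 and 8.92 CPM in WT medium. The count of 7 was 3 or 4 without cKO LPS replicate 1 (4) or 3 (3), WT LPS replicate 1 or 3 (3 each), WT medium replicate 1 (4) or 2 (3), and 4 without the first replicates of both cKO groups.

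With LPS against medium, 7 of these 35 genes were higher and 16 lower in cKO cells (64.1% of all genes called), and 9 were higher and 11 lower in WT cells (58.7%). Ptgir, the prostacyclin receptor, rose in both, by 1.91 ± 0.16 in cKO cells and 1.69 ± 0.16 in WT cells. In cKO cells Cysltr2 (3.14 ± 0.30) and the phospholipase Pla2g16 (1.80 ± 0.22) also rose, and Cyp4f16, a cytochrome P450 (-2.41 ± 0.17), Ltb4r1 (-1.58 ± 0.12) and Mgst3, a microsomal glutathione transferase (-1.25 ± 0.15), fell. In WT cells Pla2g7, which breaks down platelet-activating factor (1.17 ± 0.14), and Ptgr1, which inactivates leukotriene B4 (0.90 ± 0.12), rose, and Cyp4f16 (-1.74 ± 0.15), Mgst3 (-1.65 ± 0.15) and Fam213b (-1.10 ± 0.16) fell. Adjusted p for the genes named in these comparisons ranged from 1.22e-10 to 5.14e-06.

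With the cytokines added to LPS, 18 of the 35 were higher and 4 lower (40.3% of all genes called), and with the cytokines alone 13 were higher and 8 lower (35.2%). Ptger2 was at 39.6, 42.5 and 45.0 CPM with LPS and cytokines and 34.3, 39.8 and 31.1 CPM with the cytokines alone, above every other library, and was 5.10-fold higher than with LPS (adjusted p = 4.99e-09) and 5.04-fold higher than in medium (adjusted p = 3.45e-09). Its receptor product and that of Ptger4 both raise cyclic AMP, and Ptger4 was lower in the same libraries. Cyp4f18, known in mouse to oxidise leukotriene B4, rose in both (1.67 ± 0.18 and 2.15 ± 0.18), Mgst2 rose with LPS (1.13 ± 0.10) and Ggt5 rose against medium (2.07 ± 0.20). Ptgir (-1.84 ± 0.16), Ephx1, an epoxide hydrolase (-2.25 ± 0.29), and Pla2g16 (-0.88 ± 0.22) fell with LPS, and Ephx1 (-2.49 ± 0.26), Fam213b (-1.46 ± 0.16) and the phospholipase Pla2g4b (-1.48 ± 0.28) fell against medium. When LPS was added to the cytokines (46.9%), 8 were higher, led by Pla2g7 (1.62 ± 0.15), Ptgr1 (1.27 ± 0.12) and Cysltr2 (2.19 ± 0.30), and 6 lower, led by Dpep2, which trims cysteinyl leukotrienes (-0.59 ± 0.15), Hpgds, the haematopoietic synthase of prostaglandin D2 (-1.18 ± 0.30), and Ptges3 (-0.70 ± 0.17). For the difference between the LPS responses with and without the cytokines (20.9%), 7 were higher, with Cyp4f16 (1.41 ± 0.21), Fam213b (1.47 ± 0.23) and Mgst3 (1.22 ± 0.21) first, and 4 lower, with Pla2g16 (-1.76 ± 0.32), Ptgir (-1.15 ± 0.23) and Hpgds (-1.79 ± 0.49) first. Hpgds lost the last call without WT LPS replicate 3 (-1.52, adjusted p = 0.059). Adjusted p for the genes named here without one ranged from 3.26e-08 to 0.0125. Exons of Fam213b, Cyp4f18, Dpep2 and Pla2g4b overlap those of Mmel1, Zfp961, Dus2 and Sptbn5 on the other strand, so reads of these pairs cannot be told apart. The same limit holds for Pla2g7, whose exons overlap those of 1700071M16Rik on the other strand. Dpep2, Pla2g4b and Ephx1 also overlap unnamed gene models on the same strand (Gm22972, Gm28042 and Gm36961). Ptger2 and Ptgr2 overlap only unnamed gene models on the other strand.

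**Figure D5:**
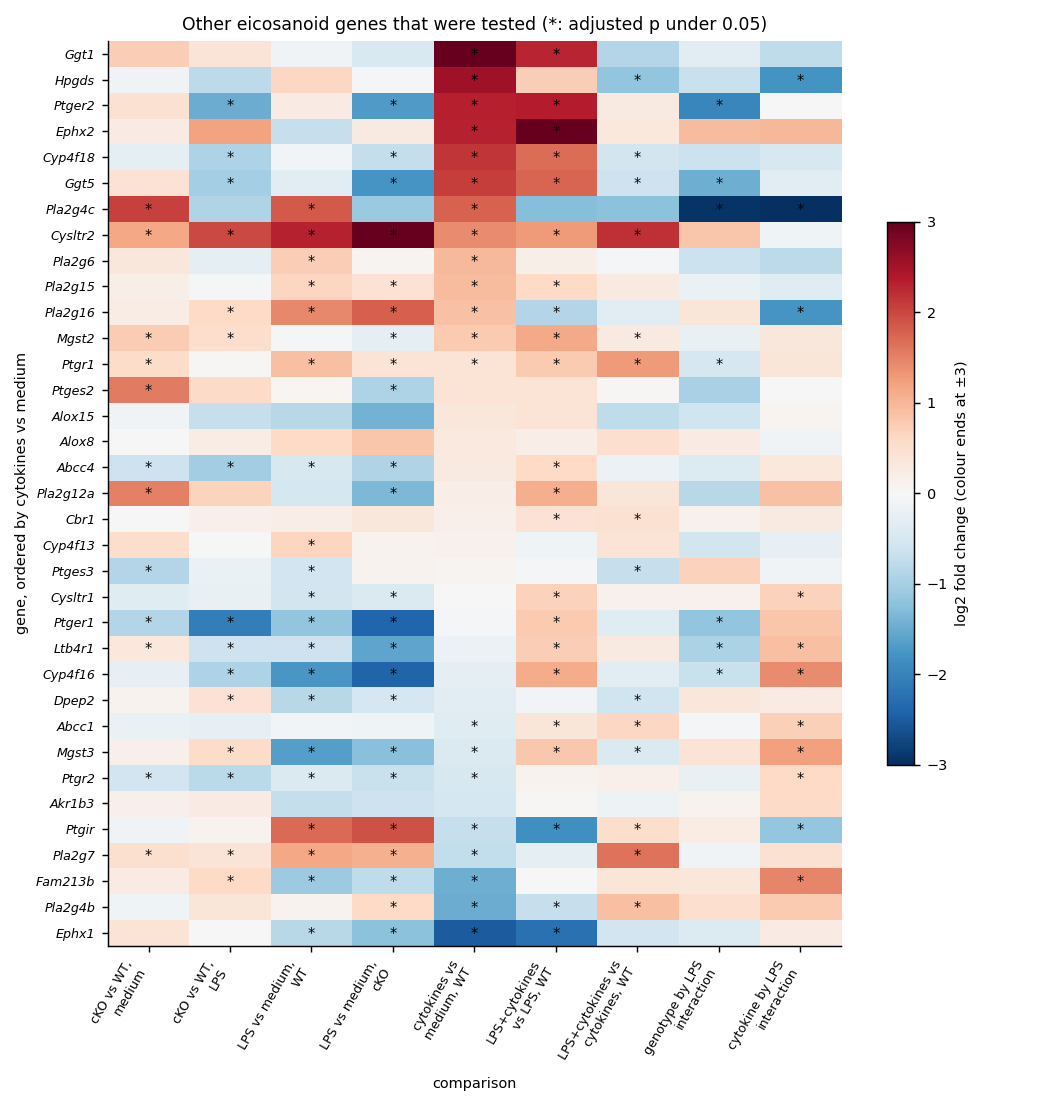
Log2 fold change of the 35 other eicosanoid genes tested, by comparison, ordered by the change with cytokines against medium, with stars at an edgeR adjusted p under 0.05. Ptger2 is red in both cytokine columns and blue in the cKO against WT column under LPS.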

How the data were processed

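RNA of 18 libraries was sequenced and quantified with RSEM on mm10 after bcl2fastq, per the submitters' processing notes, with versions not given in the sources used here. The deposited files give expected counts and TPM per gene, as the authors' RSEM run made them, per the file headers. Expected counts were rounded, genes with low counts were removed with filterByExpr, and TMM factors scaled the libraries. One edgeR 4.0.16 model (robust quasi-likelihood F-test, R 4.3.3) held the 6 groups. P-values were adjusted by Benjamini-Hochberg over 11876 genes and called under 0.05. CPM use TMM-scaled library sizes, and TPM was used to compare levels between genes. Depth limits the genes with few counts.

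The 10 genes and the lists of other eicosanoid genes and cell type markers were chosen with earlier results of these data known. Named from the wider list were the 3 called genes with the smallest p in each direction of each comparison, of which 1 gene is not reported here. Named for likeness were the 3 genes with the highest Pearson r of log2 CPM (prior count 2), leaving out unnamed gene models. Alternatives were RLE scaling, no count filter, fitting only the groups compared, a replicate block, DESeq2 1.42.0, limma 3.58.1 on log2(TPM + 1) and log2(TPM + 0.1), leaving out each library, and leaving out the first replicates of both cKO groups. The same alternatives were added for Bag6 and the named genes of the wider list after seeing the data. The scripts were tested on simulated data.

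Same-numbered libraries deviated together in the comparison of cytokines with medium, with correlations of 0.352, 0.215 and 0.445 over 8118 genes. This pairing comes from the data, since the labels do not say what a number marks. In each other comparison at least 1 pair was at or below 0.1. Gene positions are from GENCODE vM21 on GRCm38 and promoter windows from RefSeq on GRCm38.p6.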

Additional observations from a re-analysis of the deposited data

Results flagged for a closer look

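The responses to LPS differed between cKO and WT cells, by edgeR's test of the difference itself, in the following genes. The log2 difference was -1.31 for Ptgs1, -1.68 for Alox5 and -1.27 for Ptger4. Among other eicosanoid genes it was -1.96 for Ptger2, -0.96 for Ltb4r1 and -1.46 for Ggt5. For the targeted gene Bag6 it was 0.72 (adjusted p = 0.0478), and this call was lost in 10 of the 12 fits that left out a library. It was also lost without the first replicates of both cKO groups (0.47, adjusted p = 0.29), with log2(TPM + 1) (0.34, adjusted p = 0.27), with log2(TPM + 0.1) (0.41, adjusted p = 0.30) and with only these groups fitted (0.77, adjusted p = 0.08).

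The response to LPS with the cytokines differed from that without them in another set, by the same test. The log2 difference was -6.78 for Ptgs2 and -0.66 for Pla2g4a. It was 1.44 for Ptgs1, 0.76 for Tbxas1, 0.72 for Alox5, 0.80 for Alox5ap and 0.55 for Lta4h. Among other eicosanoid genes it was 1.41 for Cyp4f16, 1.47 for Fam213b, 1.22 for Mgst3, -1.76 for Pla2g16, -1.15 for Ptgir and -1.79 for Hpgds.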

How the results depend on the processing

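Of 1330 recomputed values of the 10 genes, 1221 kept their direction and side of the threshold, 65 lost a call, 31 gained one and 13 changed sign. Of 800 values of Bag6 and the named genes of the wider list, 778 kept both and 22 lost a call. On the TPM scale the median of all genes was -0.31 for cKO against WT under LPS, -0.193 for LPS in WT cells, -0.466 for LPS in cKO cells, -0.117 for the cytokines, -0.108 for LPS added to them, -0.251 for the genotype difference of LPS responses and 0.101 for the cytokine difference. There 6 of the 10 genes were called for cKO against WT under LPS with either pseudocount. Alox5ap became -0.0072 in that comparison with both pseudocounts, and -0.1687 and -0.1689 for the genotype difference of LPS responses. For that difference 3323 genes (415 higher, 2908 lower) and 3420 genes (372 higher, 3048 lower) were called on TPM, and 1268 (540 higher, 728 lower) without the first replicates of both cKO groups, against 2070. Of the other eicosanoid genes 7 were called there, 13 with either TPM pseudocount, 3 with only those groups fitted, 4 without the first cKO replicates, and 3 to 10 over the fits that left out a library. The 10 genes gave 3 to 5 calls in those fits. With only the medium groups fitted, 2306 genes were called for cKO against WT, against 3583.

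None of the values that changed sign had been called, except Alox5ap for cKO against WT under LPS. Without the first cKO replicates Pla2g4a was -0.0171 and Ptgs1 -0.0317 in medium. Leaving out a library gave ranges of -0.0171 to 0.3153 for Pla2g4a, -0.0318 to 0.2108 for Ptgs1 and -0.3055 to 0.0431 for Ltc4s (cKO against WT in medium), -0.2917 to 0.0271 for Ltc4s (LPS in cKO cells) and -0.1274 to 0.0608 for Lta4h (cytokines against medium). The cause was not tested.

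With the replicate block no call of the 10 genes changed for the cytokines against medium. Elsewhere the libraries share only a number. There the block ended 3 calls (Alox5 0.72, adjusted p = 0.053, for the cytokine difference of LPS responses; Alox5ap 0.25, adjusted p = 0.051, in medium; Ltc4s 0.69, adjusted p = 0.05, under LPS) and added 3 (Ptges 0.41, adjusted p = 0.043, with cytokines added to LPS, and -0.88, adjusted p = 0.012, for the cytokine difference; Tbxas1 -0.41, adjusted p = 0.044, for the genotype difference).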
